A study of Mus musculus with 10 samples.

Results

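Transcripts of 10 macrophage and myeloid genes were followed through RNA-seq libraries of sorted germinal center (GC) B cells from mice with and without Zbtb38. The 10 genes were chosen by name as genes of tingible body macrophages and other myeloid cells, and each of the 10 was found among the 22380 genes of the series. They are the complement genes C1qa, C1qb and C1qc, the receptors Mertk, Csf1r and Fcgr3, the lysozyme gene Lyz2, the lysosomal gene Cd68, the integrin gene Itgam and the lipid carrier gene Apoe. The 3 genotypes were ZBTB38 WT (Zbtb38 fl/fl without Cre, 2 libraries), ZBTB38 HET (Zbtb38 fl/+ with Vav-Cre, 2 libraries) and ZBTB38 KO (Zbtb38 fl/fl with Vav-Cre, 6 libraries). All mice had been immunized 2 weeks earlier with NP-OVA in alum, and the sort took B cells that carried GL7 and lacked IgD. The samples are labelled C57Bl6/N, while the methods name C57Bl6/J zygotes as the source of the floxed allele. Vav-Cre acts in hematopoietic cells at large, so macrophages of HET and KO mice could carry the deletion as well, and WT differed from the other groups in Cre and in Zbtb38 together. Neither the age nor the sex of the mice was given in the sources used here. The labels number the libraries within a genotype and do not say how they were collected, so the p-values measure the spread between these libraries.

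Tingible body macrophages sit inside germinal centers and clear B cells that die there during selection. They bind dying cells through bridging proteins and receptors such as Mertk, take them up, and digest them in lysosomes. C1q, the recognition part of the classical complement pathway, is made mainly by macrophages and dendritic cells, and its 3 chains come from 3 neighbouring genes. B cells are not known as a source of C1q, Csf1r or Lyz2, and from which cells these transcripts came was not tested. In bulk libraries, fewer cells of a type and less RNA per cell cannot be told apart.

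The libraries held between 26612431 and 41059082 estimated counts, at which a count of 0 allows up to 3 counts, or 0.0731 to 0.113 CPM (counts scaled to a total of 1000000 per library). Levels are given as TPM (transcript abundance corrected for length and scaled to a total of 1000000 per library), and tests were made on counts with edgeR, at an adjusted p of 0.1. Zbtb38, the targeted gene, stood at 63.3 to 63.5 TPM in WT, 49.6 TPM in both HET libraries and 17.5 to 46.1 TPM in KO, where the exons outside the floxed exon remain. The 46.1 TPM was KO replicate 2 alone, and the other KO libraries were at 17.5 to 23.7 TPM. The cause of the higher level in KO replicate 2 was not tested. Y-linked transcripts (Ddx3y, Eif2s3y, Kdm5d and Uty) summed to 192 to 294 CPM in both WT libraries and in KO replicates 1, 2 and 5, and to 1.94 to 7.40 CPM in both HET libraries and in KO replicates 3, 4 and 6. A difference between WT and HET therefore cannot be told apart from one between the sexes. KO replicate 6 stood apart from the rest, with a median correlation of 0.954 with the other libraries against 0.971 to 0.983 for the others. The identity of the sort was clear in every library: 6 B cell genes, such as Cd79a and Cd79b of the B cell receptor, summed to 6152 to 8196 TPM, and 7 GC genes, such as Mef2b, to 1170 to 2397 TPM.

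C1qa, C1qb and C1qc lie side by side on the minus strand of chromosome 4 in GRCm38, C1qb at chr4:136880129-136886187, C1qc at chr4:136889804-136893065 and C1qa at chr4:136895917-136898803. Lyz2 lies at chr10:117277331-117282321 on the minus strand and Itgam at chr7:128062640-128118491 on the plus strand. The sequence just before the start of the gene was read for the 2 C1q genes in the promoter table and for Lyz2 and Itgam, since the C1q genes varied together and so did Lyz2 with Itgam. The sequences are from RefSeq on GRCm38.p6 (chr4:136886201-136886450, chr4:136893066-136893164, chr10:117282322-117282522 and chr7:128062390-128062639), 5′ to 3′ on the strand of the gene, and capitals mark GAGGAA on either strand, the core of the box bound by PU.1, the myeloid and B cell factor encoded by Spi1.
C1qb: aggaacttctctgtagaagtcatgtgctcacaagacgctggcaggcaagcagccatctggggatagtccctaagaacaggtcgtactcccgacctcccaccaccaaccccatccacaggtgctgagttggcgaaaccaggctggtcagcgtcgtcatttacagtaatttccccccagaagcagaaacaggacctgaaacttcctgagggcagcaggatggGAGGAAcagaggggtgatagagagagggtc
C1qc: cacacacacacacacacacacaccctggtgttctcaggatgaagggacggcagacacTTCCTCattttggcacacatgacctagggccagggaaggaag
Lyz2: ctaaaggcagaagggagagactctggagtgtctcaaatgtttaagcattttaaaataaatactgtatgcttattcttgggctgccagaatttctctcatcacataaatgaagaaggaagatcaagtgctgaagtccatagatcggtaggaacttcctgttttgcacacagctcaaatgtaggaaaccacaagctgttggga
Itgam: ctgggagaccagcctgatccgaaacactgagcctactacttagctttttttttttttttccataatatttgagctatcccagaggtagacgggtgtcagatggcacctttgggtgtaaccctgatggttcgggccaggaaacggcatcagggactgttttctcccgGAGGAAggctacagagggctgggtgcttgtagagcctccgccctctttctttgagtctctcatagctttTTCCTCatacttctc
The motif was chosen after these sequences had been seen. It was found once in the stretch of C1qb, once in that of C1qc, in 2 places in that of Itgam and not in that of Lyz2. Over windows of 300 bases (250 before and 50 after the start), 6 of the 8 members with an entry held it in at least 1 promoter, and 31.3% of 27025 genes did. The members without it were Mertk and Lyz2, and C1qa and Csf1r had no entry. Spi1 itself, measured in the same libraries, was at 130 to 198 TPM in all 10.

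The C1q transcripts were detected in every library and varied together. C1qb was at 98.0 and 58.1 TPM in WT and at 13.7 and 25.8 TPM in HET, and in KO it ran from 8.56 through a median of 51.3 to 106 TPM. C1qa was at 42.9 and 26.96 TPM in WT, 7.14 and 9.58 TPM in HET, and 5.90, 22.2 and 43.3 TPM (lowest, median, highest) in KO. C1qc was at 53.5 and 42.5 TPM in WT, 7.92 and 13.6 TPM in HET, and 9.44, 35.5 and 61.5 TPM in KO. Both WT libraries lay above both HET libraries for all 3 chains, as they did for 25.8% of all genes tested. The KO libraries spanned both groups, with KO replicate 4 the highest and KO replicate 2 the lowest KO library each time. Summed over the 3 genes, C1q differed 8.83-fold between the highest and lowest library, while the share of each chain in that sum differed 1.38-fold to 1.47-fold. C1qb made up 35.8% to 52.6% of it, C1qc 27.02% to 39.5% and C1qa 18.1% to 25.1%. The pairwise Pearson correlations of log2(CPM + 1) between the 3 genes were 0.965 to 0.983 over the 10 libraries. These libraries include 3 genotypes, so the values describe how the genes moved and carry no test.

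Lyz2, the lysozyme of macrophages, monocytes and granulocytes, had the largest SD of log2(CPM + 1) among the members (1.73). It was at 432 and 384 TPM in WT and at 44.3 and 28.7 TPM in HET, and in KO it ran from 20.2 through a median of 85.5 to 694 TPM. Both WT libraries were high and close to each other, both HET libraries were low, and KO replicates 1, 2 and 6 were as low as HET while KO replicate 4 was above WT. Itgam, which encodes CD11b, the alpha chain of an integrin that myeloid cells use for adhesion and complement uptake, went the same way. It was at 9.53 and 8.28 TPM in WT, at 1.55 and 0.51 TPM in HET, and at 1.36, 2.05 and 14.4 TPM (lowest, median, highest) in KO. The Pearson correlation of Lyz2 with Itgam was 0.959, against 0.647 for Lyz2 with C1qb. Lyz1, a close copy of Lyz2 that could share its reads, was named after its values were seen and was at 0 to 3.11 TPM.

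Lyz2 and C1q did not keep a fixed ratio to each other. The TPM of Lyz2 was 6.62 times that of C1qb in WT replicate 2 and 6.54 times in KO replicate 4, but 0.609 times in KO replicate 1 and 0.556 times in KO replicate 6, a range of 11.9-fold. KO replicate 6 had high C1qb (65.2 TPM) and the highest Cd68 and Mertk of all libraries, beside low Lyz2 (36.3 TPM) and low Itgam. The plot of levels relative to each gene's mean shows this, with the red Lyz2 marker inside or above the C1q cluster in some libraries and far below it in KO replicates 1 and 6. Without KO replicate 6 the ratio still ran from 0.609 to 6.62.

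**Figure D1:**
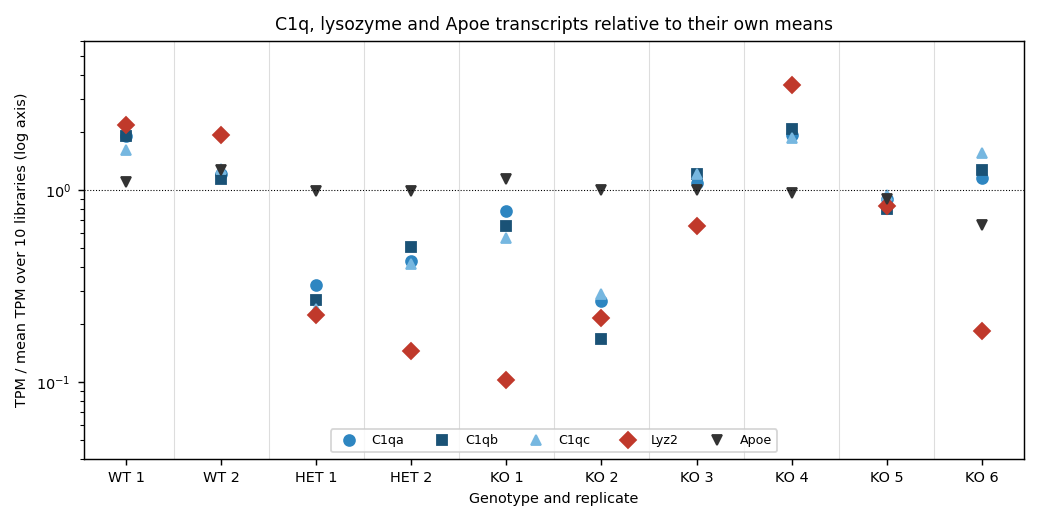
TPM of C1qa, C1qb, C1qc, Lyz2 and Apoe divided by the gene's own mean over the 10 libraries (log axis), for each library by genotype and replicate number. The 3 C1q markers stay close together in every library, Lyz2 falls far below them in KO replicates 1 and 6, and Apoe stays within a narrow band and is lowest in KO replicate 6.

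Cd68, a glycoprotein of late endosomes and lysosomes and a standard stain for tingible body macrophages, varied less than C1q. It was at 36.9 and 30.4 TPM in WT, at 15.3 and 11.8 TPM in HET, and at 19.0, 29.2 and 54.1 TPM (lowest, median, highest) in KO. Both HET libraries were below every other library for this gene, and they were below every KO library for 3.71% of all genes tested. Fcgr3, the low-affinity receptor for IgG that signals through the Fc receptor gamma chain, followed C1qb closely (Pearson correlation 0.906). It was at 11.6 and 5.99 TPM in WT, at 3.08 and 0.98 TPM in HET, and at 0.52, 6.86 and 17.8 TPM in KO. KO replicate 2 was the lowest library and KO replicate 4 the highest. Its reads may be shared with the related genes Fcgr4 (0.47 to 5.93 TPM) and Fcgr2b, the inhibitory receptor of B cells, which was at 98.5 TPM or more in every library.

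Csf1r, the receptor for the growth factor CSF1 on which most macrophages depend, was at 23.5 and 16.4 TPM in WT and at 6.62 and 11.6 TPM in HET. In KO it was at 1.93, 15.0 and 23.0 TPM (lowest, median, highest). Both WT libraries were above both HET libraries, as for 25.8% of all genes tested, and KO replicates 1 and 2 were the lowest of all. KO replicate 1 was distinct in having C1qb at 33.1 TPM with Csf1r at 1.93 TPM, the lowest ratio of the pair in the series (0.0584, against 0.217 to 0.524 in the other 9). Mertk, the receptor for phosphatidylserine-bound bridging proteins through which tingible body macrophages take up dying cells, was the scarcest member. It was at 2.42 and 1.72 TPM in WT and at 0.24 and 0.38 TPM in HET. In KO it was at 0.019, 0.90 and 3.10 TPM, which corresponds to 2 counts in KO replicates 1 and 3 and 363 counts in KO replicate 6. A count of 2 is below the limit of 3 that a count of 0 allows, so Mertk was not measurable in these 2 libraries, one of which (KO replicate 3) held C1qb at 61.9 TPM.

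Apoe, a carrier of cholesterol that is abundant in macrophages and is also made by other cells, did not follow the rest. It was at 722 and 831 TPM in WT, at 647 and 646 TPM in HET, and at 433, 644 and 749 TPM (lowest, median, highest) in KO. Its range over the 10 libraries was 1.92-fold, against 4.60-fold for Cd68, the next smallest of the members. Relative to the B cell gene Cd79b it was nearly constant, at 0.249 to 0.304 times its TPM in 9 libraries and 0.182 times in KO replicate 6. Of the 9 transcripts listed for Apoe, 8 had counts, and 1 (ENSMUST00000174355.7) gave 63.5% of its TPM. Among the genes tested, the level of Apoe ranked at the 98.0th percentile and its spread at the 35.0th.

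**Figure D2:**
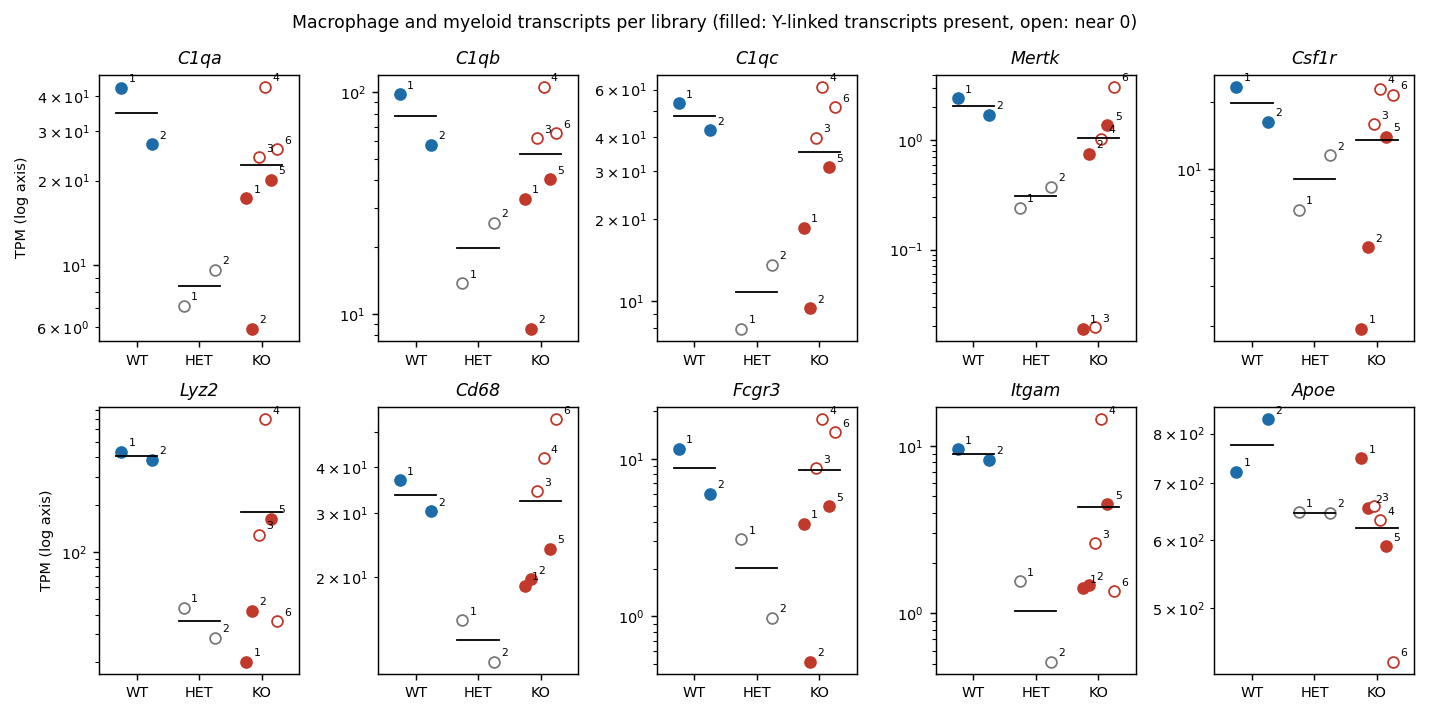
TPM (log axis, each gene on its own scale) of the 10 members in each library, by genotype, with the replicate number beside each point and the group mean as a bar. Filled points are libraries with Y-linked transcripts and open points those without. Both WT points lie above both HET points in each panel, as for 25.8% of all genes tested, and the KO points span both groups in most panels.

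The 9 members other than Apoe were among the more variable genes of the whole dataset. Over the 10 libraries their SD of log2(CPM + 1) was 0.69 (Cd68) to 1.73 (Lyz2), at percentiles 91.0 to 99.9 of 14351 genes, whose median was 0.31. The 36 pairs among these 9 genes had Pearson correlations of 0.378 to 0.983 with a median of 0.658, and the 9 pairs with Apoe had correlations of -0.50 to 0.15 with a median of 0.00. The 5 genes outside the list that were most like the mean log2(CPM + 1) of the members were Cd63, Ckb, Lgals3, Ifitm3 and Tcn2, chosen by Pearson correlation over the 10 libraries. Their correlations were 0.974 for Cd63, 0.963 for Ckb, 0.957 for Lgals3, 0.953 for Ifitm3 and 0.951 for Tcn2, with Spearman values of 0.855 to 0.952. Ifitm3, an interferon-induced membrane protein, ran from 3.92 to 71.3 TPM, and Cd63, a tetraspanin of late endosomes, from 0.063 to 6.83 TPM.

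**Figure D3:**
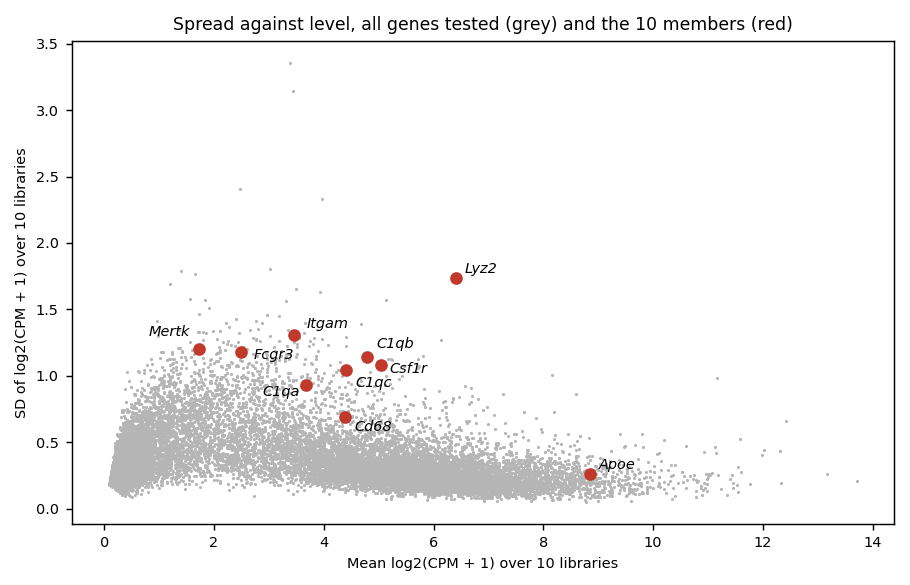
SD of log2(CPM + 1) over the 10 libraries against its mean, for the genes tested (grey) and the 10 members (red). Apoe lies within the band of genes of its level at an SD of 0.26, and the other 9 lie at 0.69 to 1.73, near or along the upper edge.

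The comparison of ZBTB38 WT with KO asks whether loss of Zbtb38 changed these transcripts, and no member passed the test. In WT 8 of the 10 members had the higher value, and the median over the 10 was 0.43 on the log2 scale, against -0.01 over the 14203 genes tested. The largest values were 1.16 ± 0.95 (SE) for Lyz2, 1.03 ± 0.73 for Itgam and 0.83 ± 1.28 for Mertk. C1qa, C1qb and C1qc were at 0.49 ± 0.53, 0.45 ± 0.62 and 0.31 ± 0.53, and Cd68 and Fcgr3 were at -0.08 ± 0.41 and -0.07 ± 0.91. The edgeR adjusted p was 0.999 for each member, while 0.00704% of all genes passed, namely Zbtb38 alone (log2 fold change 2.31 ± 0.27, edgeR adjusted p = 0.0734). With a library left out, Zbtb38 passed only without KO replicate 2 or KO replicate 6. At an unadjusted p under 0.05 there were 0 members, against 2.19% of all genes, and DESeq2 called 0 members as well. In 0 members were both WT libraries above every KO library, which was the case for 5.31% of all genes. Leaving out KO replicate 4 gave 2 members, Lyz2 and Itgam, an unadjusted p under 0.05, against 544 of 13992 genes. The median was 0.11 without WT replicate 1 (C1qb at -0.0123), 0.73 without WT replicate 2 and 0.22 without KO replicate 2, and Cd68 and Fcgr3 turned positive without WT replicate 2 or KO replicate 6.

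Among the libraries with Y-linked transcripts, 2 WT against 3 KO, the values were larger. In these libraries all 10 members had the higher value in WT and a median of 1.29 on the log2 scale, against 0.00 over the genes tested, and 0 passed the adjusted threshold. Of the 10, 5 (C1qb, C1qc, Lyz2, Csf1r and Itgam) had an unadjusted p under 0.05, against 3.04% of all genes that did so with a higher level in WT. Lyz2 differed by 2.33 ± 0.64 and Itgam by 1.71 ± 0.47 on the log2 scale, each with an edgeR adjusted p of 0.818. This subset was chosen after seeing the data, and it leaves out KO replicate 4, the highest KO library for 7 members.

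With WT and HET pooled as 4 control libraries, the members lay on both sides of 0. Of the 10, 4 were higher in the controls, the median log2 fold change was -0.12 against -0.02 over all genes, and the values ran from -0.76 ± 0.80 for Fcgr3 to 0.29 ± 0.92 for Lyz2. With WT and HET as separate terms whose mean was set against KO, 1 member was higher in the controls and the median was -0.54. In that fit Cd68 had an unadjusted p under 0.05, as had 1005 of 14354 genes. In the pooled fit no member passed (smallest edgeR adjusted p = 0.751, for Cd68 at -0.59 ± 0.39), while 0.00749% of genes passed. At an unadjusted p under 0.05 there were 0 members, by edgeR and by DESeq2, against 6.30% of genes. Without WT replicate 2, 0 of the 10 were higher in the controls (median -0.24). Without WT replicate 1 the median was -0.69 and Cd68 had an unadjusted p under 0.05, as had 739 of 13634 genes. The median turned to 0.09 without HET replicate 1, 0.05 without HET replicate 2 and 0.01 without KO replicate 4. The pooled control group joined WT libraries high in these transcripts with HET libraries low in them, since the sum over the 9 members without Apoe was 575 and 710 TPM in WT and 99.8 and 102.9 TPM in HET. Lyz2 alone gave 384 and 432 TPM of the WT sums and 44.3 and 28.7 TPM of the HET sums.

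Between HET and KO, which both carry Vav-Cre, all 10 members had a lower value in HET. The median log2 fold change was -1.70 against -0.07 over the 14354 genes tested. Cd68 was at -1.39 ± 0.43 and C1qc at -1.83 ± 0.61, and Lyz2, at -2.30 ± 1.13, had the largest difference. None passed the adjusted threshold (smallest edgeR adjusted p = 0.370, for Cd68), and 0.00697% of genes did. Zbtb38, the targeted gene, did not pass in edgeR either (1.82 ± 0.26, edgeR adjusted p = 0.128), while DESeq2 called it. The 5 members C1qa, C1qb, C1qc, Cd68 and Itgam had an unadjusted p under 0.05, each lower in HET, against 10.2% of genes in either direction and 4.76% lower in HET. DESeq2 called 3 members, C1qc, Cd68 and C1qa (adjusted p of 0.0375, 0.0389 and 0.0977), against 2.96% of the genes it fitted. Cd68 was the 1 member with both HET libraries below every KO library, as were 3.71% of genes. The count of 5 fell to 2 without HET replicate 1 and to 1 without HET replicate 2. It fell to 3 without KO replicate 4, KO replicate 5, WT replicate 1 or WT replicate 2. The WT libraries enter through the shared estimate of spread. Without KO replicate 3 it was 4, and without KO replicate 2 it rose to 7. Over all genes, 659 of 15183 and 840 of 15205 had an unadjusted p under 0.05 without HET replicates 1 and 2. Without KO replicates 2, 3, 4 and 5 these were 1640 of 14206, 1269 of 14242, 1425 of 14192 and 1519 of 14261. Without WT replicates 1 and 2 they were 1304 of 15115 and 1306 of 15144.

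Among the libraries without Y-linked transcripts, 2 HET against 3 KO, 9 of the 10 members were lower in HET. The median log2 fold change was -2.20, and 8 members, all but Mertk and Apoe, had an unadjusted p under 0.05, against 5.10% of genes that did so with a lower level in HET. C1qc was at -2.35 ± 0.33, C1qb at -2.07 ± 0.34 and Cd68 at -1.83 ± 0.33, each with an edgeR adjusted p of 0.354. Apoe was at 0.05 ± 0.17. This subset was also chosen after seeing the data, and it holds KO replicates 3, 4 and 6, the 3 highest KO libraries for C1qa, C1qb, C1qc, Cd68, Csf1r and Fcgr3.

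Between the 2 kinds of control, WT and HET, all 10 members had the higher value in WT, with a median of 2.07 on the log2 scale, against 0.01 over all genes. Lyz2 was at 3.46 ± 1.30, Itgam at 3.07 ± 1.04 and C1qc at 2.14 ± 0.69, and Apoe at 0.25 ± 0.25. Of the 10, 6 (C1qa, C1qb, C1qc, Lyz2, Cd68 and Itgam) had an unadjusted p under 0.05, against 6.42% of genes in either direction and 3.98% higher in WT. None passed the adjusted threshold (smallest edgeR adjusted p = 0.709), as 0.00697% of genes did. In all 10 members both WT libraries were above both HET libraries, which was so for 25.8% of all genes. When the 4 libraries were fitted alone, 7 members passed, all but Csf1r, Fcgr3 and Apoe, with edgeR adjusted p of 0.00214 for Lyz2 to 0.0733 for Mertk, and 3.96% of genes passed. That fit takes its spread from 2 libraries a group, and DESeq2 on all 10 libraries called 2 members, Itgam and C1qc, against 1.06% of the genes it fitted. The count of 6 fell to 3 without WT replicate 1 or HET replicate 2 and to 2 without HET replicate 1. It rose to 7 without KO replicate 2. Over all genes, in the same order of fits, 725 of 15115, 686 of 15205, 410 of 15183 and 919 of 14206 had such a p. Zbtb38 dosage, Vav-Cre and sex differ together between these groups and cannot be told apart. Hnrnpll, a splicing regulator named after its values were seen, was the single gene called in the comparisons of HET with KO (edgeR adjusted p = 0.0496) and of WT with HET (edgeR adjusted p = 0.0395), lower in HET in both.

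**Figure D4:**
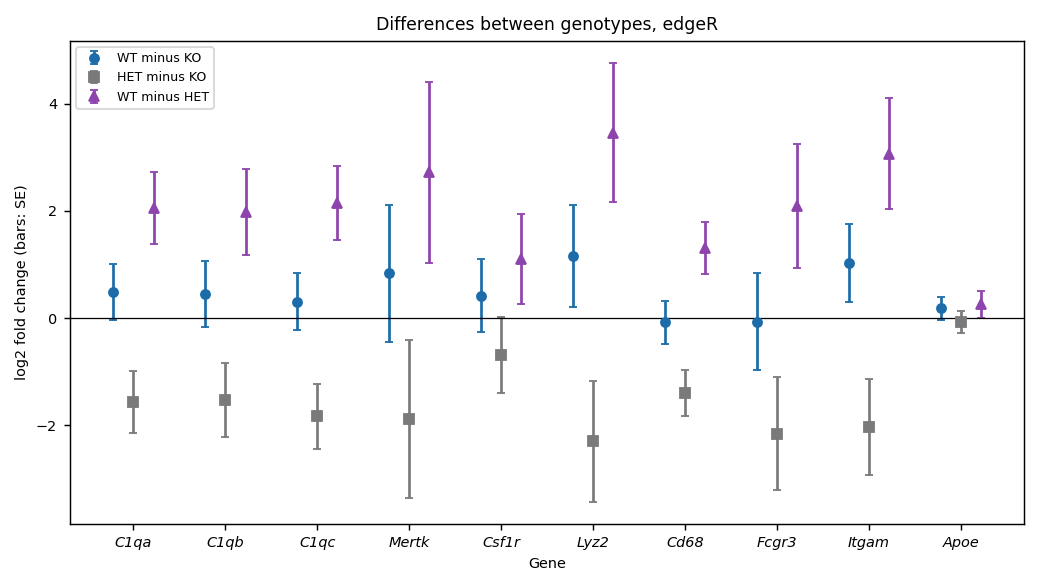
Log2 fold change of each member from edgeR for WT minus KO, HET minus KO and WT minus HET, with bars of 1 SE. The comparisons share libraries; WT minus HET is above 0 and HET minus KO below 0 for each member, Apoe is nearest to 0 in both, and no value passed an adjusted p of 0.1.

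Of 14 further macrophage genes, edgeR called 0 in any comparison, and 0, 2 and 3 had an unadjusted p under 0.05 for WT against KO, HET against KO and WT against HET, while DESeq2 called 1, Msr1, in the last. Over all genes the shares at that p were 2.19%, 10.2% and 6.42%, and DESeq2 called 1.06% in the last. The median log2 fold change of the 14 was -0.22 for WT against KO, -1.09 for HET against KO and 0.83 for WT against HET. Msr1, a scavenger receptor, was at 9.58 and 4.87 TPM in WT, at 0 and 0.48 TPM in HET, and at 0.058 to 6.65 TPM in KO. Adgre1, which encodes F4/80, was at 9.98 and 8.12 TPM in WT, at 2.41 and 2.14 TPM in HET, and at 0.67 to 8.69 TPM in KO. Hmox1 and Slc40a1, a heme oxygenase and an iron exporter known from red pulp macrophages, were highest in KO replicate 6, at 81.9 and 34.0 TPM, where Msr1 was at 0.058 TPM. Spic, a factor of red pulp macrophages named after its values were seen, was highest in KO replicate 3 (13.8 TPM). The summed TPM of the 14 genes was 89.4 and 127 in WT, 49.7 and 68.4 in HET and 42.7 to 174 in KO.

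Genes that work beside the members in the uptake of dying cells were mostly low. Of 14 such genes edgeR and DESeq2 called 0, and 2, 1 and 2 had an unadjusted p under 0.05 for WT against KO, HET against KO and WT against HET, with medians of 0.44 for WT against KO, -0.83 for HET against KO and 0.87 for WT against HET. The shares of all genes at that p were 2.19%, 10.2% and 6.42%. Mfge8, a bridging protein of tingible body macrophages named after its values were seen, was at 2.45 to 9.08 TPM, and Cd36, a scavenger receptor that some B cells also express, was at 30.0 to 184 TPM and highest in KO replicate 6. Abca1, a cholesterol exporter, was at 3.17 and 2.67 TPM in WT and at 0.79 to 2.15 TPM in KO (log2 fold change 0.81 ± 0.31, edgeR adjusted p = 0.999). Among 12 other complement genes, 11 could be tested, edgeR called 0, and DESeq2 called 1, Cd55, for HET against KO, against 2.96% of the genes it fitted. Cr2, the complement receptor of B cells, was at 67.4 to 142 TPM, while C1s1, a protease that binds C1q, was at or below 0.064 TPM in all libraries and above 0 in 2. C3ar1 and C5ar1, receptors for complement fragments on myeloid cells, were highest in KO replicate 4 (2.85 and 6.43 TPM), as C1q and Lyz2 were.

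Partners of the member receptors had the same order of WT and HET. Fcer1g, the signalling chain of Fcgr3, was at 43.7 and 35.6 TPM in WT, at 8.91 and 11.4 TPM in HET, and at 5.31 to 48.2 TPM in KO. Tyrobp, a signalling adaptor of myeloid receptors, was at 74.7 and 70.6 TPM in WT, at 29.5 and 23.1 TPM in HET, and at 9.15 to 129 TPM in KO. Both WT libraries were above both HET libraries for both genes, as for 25.8% of all genes tested. Neither Fcer1g nor Tyrobp passed in any comparison with either tool (edgeR adjusted p of 0.436 or more for Fcer1g and 0.561 or more for Tyrobp). Of the ligands of Csf1r, Csf1 was at 0 to 1.92 TPM and Il34 at 0 in all libraries.

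Lists of other cell types were summed in the same way. T cell genes (13) summed to 245 and 255 TPM in WT, 147 and 151 TPM in HET and 133 to 198 TPM in KO. Their median log2 fold change for WT against HET was 1.38 (higher in WT). Of the 13, 7 were higher in WT at an unadjusted p under 0.05, against 3.98% of all genes. Cd3g was at 27.2 and 23.9 TPM in WT and at 2.67 and 5.40 TPM in HET. Much of the T cell sum was Lck, at 77.0 to 124 TPM in all libraries, while Cd3g ranged 10.2-fold over them. Erythroid genes (6) summed to 133 and 187 TPM in WT, 104 and 114 TPM in HET and 176 to 257 TPM in KO. Much of that sum was Hbb-bt, at 96.4 to 177 TPM, while Hbb-bs ranged 36.2-fold. GC genes had a different order, 1732 and 1826 TPM in WT, 2313 and 2326 TPM in HET and 1170 to 2397 TPM in KO, lowest in KO replicate 6. No gene of these lists passed in edgeR. DESeq2 called 4 T cell genes and 2 erythroid genes for WT against HET and 3 of each for HET against KO. Of all genes it fitted, it called 1.06% and 2.96% in these 2 comparisons. The part of the listed genes in the differences of the members was not tested. Against this background the 9 members without Apoe were a small part of each library, at 0.0575% to 0.0710% of all TPM in WT, 0.00998% to 0.0103% in HET and 0.00935% to 0.1003% in KO.

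**Figure D5:**
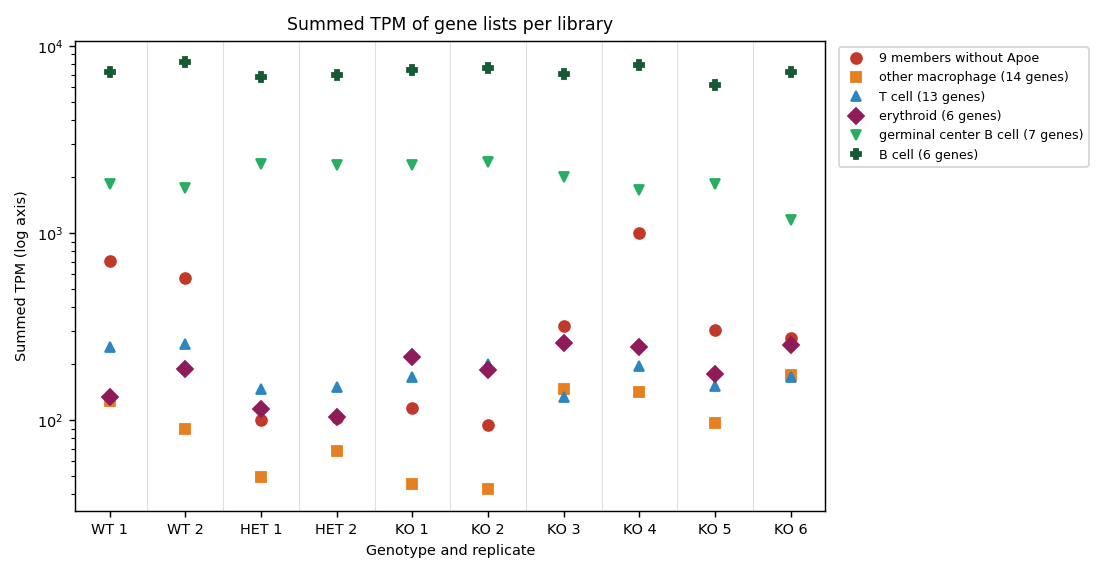
Summed TPM (log axis) of the 9 members without Apoe and of 5 marker lists in each library, by genotype and replicate number. The member sum ranges from 93.5 to 1003 TPM, and Lyz2 gives 694 of the 1003 TPM in KO replicate 4. The B cell sum stays at 6152 to 8196 TPM and the T cell sum at 133 to 255 TPM. Lck holds much of the T cell sum at 77.0 to 124 TPM, while Cd3g ranges 10.2-fold and Tcf7 15.2-fold.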

How the data were processed

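Libraries were made by Novogene with SMART-Seq v4 and read as pairs. The authors quantified them per transcript by Salmon on Gencode vM17. The submitters' processing notes name Salmon 0.9.1 and DESeq2 2.11.40.6. The deposited values are estimated counts per transcript, not normalized and not whole in 46.8% of cases, and TPM, which the authors' Salmon run scaled to 1000000 per library. Estimated counts and TPM were summed per gene identifier over 64019 transcripts, symbols were attached afterwards, and the counts were rounded. TPM describes levels, and counts were tested with edgeR 4.0.16 (quasi-likelihood, TMM, filterByExpr, Benjamini-Hochberg over all genes, threshold 0.1) in R 4.3.3. WT against KO was fitted on its own libraries, and WT plus HET against KO on all 10 with WT and HET joined. HET against KO and WT against HET came from 1 fit of 10 libraries with a term per genotype. CPM is scaled to 1000000 after TMM, with a pseudocount of 1 on the log2 scale. Positions are from Gencode vM21 on GRCm38. SEs were derived from the log2 fold change and the F statistic. They include the spread between libraries, and the limits given for a count of 0 cover counting error only. The genes named are the members, Zbtb38, up to 4 genes of each list with the highest TPM, up to 3 with the smallest p between WT and KO, and the 5 most like the members, and others are said to be named after their values were seen. Genes with an unadjusted p under 0.05 in a list are counted. The members, lists and tests were chosen with earlier results of these data known. The fits were tested on simulated data. Alternatives were DESeq2 1.42.0 and its size factors, no filter, limma 3.58.1 on log2 TPM with 1 or 0.1 added, length-scaled counts, immunoglobulin genes left out, other groupings of the libraries in the fit, a replicate block and each library left out. No library of a genotype was a copy of another.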

Additional observations from a re-analysis of the deposited data

Results flagged for a closer look

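KO replicate 4 stood far above the other 5 KO libraries in 4 of 26 groups of 6 libraries checked with Dixon's test at 95%. The flagged values were TPM without a log. Chance flags about 1 group in 20 only where values are normally distributed, which was not checked here. The groups share libraries and genes and so are not independent. Lyz2 was at 694 TPM there, and the next KO library was at 163 TPM. Itgam was at 14.4 TPM, with the next at 4.48 TPM. The sum over the 10 members was 1637 TPM with the next at 974 TPM, and the sum over the 9 members without Apoe was 1003 TPM with the next at 316 TPM.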

How the results depend on the processing

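No member passed in edgeR, which held under each of the 19 alternatives for WT plus HET against KO. DESeq2 called 3 members for HET against KO and 2 for WT against HET, and the fit of the 4 libraries alone called 7 for WT against HET. The labels do not say what a replicate number marks, and correlations of deviations between libraries of the same number were -0.01 to 0.13. With 2 libraries each in WT and HET, these values cannot settle whether the libraries were paired. Replicates 3 to 6 exist only in KO, so in a replicate block KO enters the differences through replicates 1 and 2 alone. With that block 1 member (Lyz2) was called for WT against KO and 2 for WT against HET. With the block the members at an unadjusted p under 0.05 went from 0 to 8 for WT against KO, 0 to 2 for WT plus HET against KO, 5 to 2 for HET against KO and 6 to 9 for WT against HET, and the medians over the members from 0.43 to 2.12, -0.12 to 1.34, -1.70 to -0.18 and 2.07 to 2.00. Among all genes the block gave 1090 of 14203, 1104 of 13347, 1396 of 14354 and 1215 of 14354 at that p, in the same order. The genes called, 1 in each comparison, became 7, 25, 515 and 185 with DESeq2 for WT against KO, WT plus HET against KO, HET against KO and WT against HET. With the block they became 6, 0, 4 and 66. With limma on log2(TPM + 0.1) they became 3, 0, 6 and 5, with log2(TPM + 1) 0 for each of the comparisons of WT and of WT plus HET with KO, and with length-scaled counts 0 for the same 2. Without a filter HET against KO gave 2, in 1 fit of all libraries WT against KO gave 2, and with the libraries of the 2 groups alone HET against KO gave 0 and WT against HET 523. Within the libraries with or without Y-linked transcripts 0 genes were called. With each library left out the ranges were 0 to 2, 1 to 2, 0 to 5 and 0 to 16 genes. Without Apoe the log2 difference of summed TPM went from 0.61 to 1.32 for WT minus KO, from -0.32 to -1.34 for HET minus KO and from 0.92 to 2.66 for WT minus HET.

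Directions turned where values were near 0 or under the block. For WT against KO, Cd68 (-0.08) became 0.16 on both limma scales, 0.62 with the block, 0.53 in libraries with Y-linked transcripts, and -0.25 to 0.18 with a library left out. Fcgr3 (-0.07) became 0.40 and 0.60 with limma, 2.27 with the block, 1.28 in libraries with Y-linked transcripts, and -0.65 to 0.35 with a library left out. C1qb was at -0.0123 to 0.80 with a library left out, and Apoe at -0.0091 with the block. For HET against KO, the block gave 0.17 for Mertk, 0.11 for Lyz2 and 1.42 for Csf1r, and Apoe became 0.0809 and 0.081 with limma, 0.0514 in libraries without Y-linked transcripts and -0.14 to 0.0441 with a library left out. Under the block the KO values came from replicates 1 and 2 alone, and the cause of the changes was not otherwise tested. Limma on log2(TPM + 0.1) moved the median of all genes for WT against KO from -0.01 to 0.16, and there all 10 members were higher in WT. The depth limits Mertk and Fcgr3, the members with the fewest counts.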

Other observations

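Of the granule genes of neutrophils, Ngp was at 1.71 TPM in WT replicate 1 and 4.66 TPM in HET replicate 2 and had no counts in the other 8, and Ltf and Camp were found in the same 2 libraries alone. S100a9, an alarmin of neutrophils and monocytes, was at 8.79 TPM in WT replicate 1 and 17.5 TPM in HET replicate 2 and at 0 to 3.29 TPM elsewhere. Lyz2 was 432 TPM in the first of these libraries and 28.7 TPM in the second. Other granule genes had another pattern: Mpo had counts in all 10 libraries (0.095 to 1.15 TPM, highest in KO replicate 2), Lcn2 also in KO replicates 3 and 4, and Mmp9 in HET replicate 2 and KO replicates 4 and 5. Elane, Mmp8 and Retnlg had no counts in any library. Ngp, Ltf, Camp, Mpo, Lcn2, Mmp9, Elane, Mmp8 and Retnlg were named after their values were seen.

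Ly6c2, which is high in inflammatory monocytes and also expressed by plasma cells, was at 45.7 and 33.3 TPM in WT, 6.22 and 8.64 TPM in HET and 13.4 to 117 TPM in KO, highest in KO replicate 6. Its log2 fold change of HET against KO was -2.96 ± 0.84 (edgeR adjusted p = 0.333), which DESeq2 called. Among stromal and follicular dendritic cell genes, Col3a1 and Ccl21a had no counts in any library and Cxcl13 was at 0 to 0.705 TPM (the 3 named after their values were seen). Trem2, a lipid receptor of macrophages, was at 2.63 and 2.55 TPM in WT and 4.18 TPM in KO replicate 4, and had no counts in HET replicate 2 and in KO replicates 1, 2 and 6, of which KO replicate 6 held C1qb at 65.2 TPM.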
